A study of Mus musculus with 32 samples.

Results

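Of the 55419 mouse transcripts measured, 189 had a median level in osteosarcoma at least 2-fold under the lowest of the medians of the 3 other tissue classes, while those 3 classes stayed within 3-fold of each other. The level is the RPKM, the reads on a transcript scaled to its length in kilobases and to the total reads of its library. Each of the other classes, clear cell sarcoma, synovial sarcoma and control, had to have a median of at least 5 RPKM for the transcript, and 5000 transcripts met that and the 3-fold limit. The 189 were 3.78% of the 5000. All ratios were taken on RPKM + 1, so 1 RPKM was added to each value before dividing. Because the osteosarcoma median itself chose the 189, the gap between osteosarcoma and the other classes is given as a description and was not tested.

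RNA sequencing libraries were made from 32 mouse samples. The 7 osteosarcomas carry Rb1 and p53 in their titles with a Cre named Col1Cre in 4 and Prx1Cre in 3. The 13 clear cell sarcomas carry the tag EA1 in their titles and were started with Rosa26CreER in 5, TATCre in 4, Prx1CreERT2 in 2 and Bmi1IRESCreERT2 in 2. The 6 synovial sarcomas have titles with Myf5-SSM2/PLUC. The 6 controls have the titles Chest in 5 and Bone in 1. The labels give no age, strain, batch or animal. Numbers recur in the titles of some libraries: N123 in 2 TATCre clear cell sarcomas, N37 in 3 and N39 in 2 synovial sarcomas, and nothing says whether these came from separate animals. Any p-value below rests on how much these libraries varied, and some of that variation may be technical. Libraries are called by their Cre and the number in their title. The Cre and the alleles differ with the tumour type, so type and genotype cannot be told apart.

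Osteosarcoma is a bone tumour of cells that lay down bone matrix. Mice develop it when Rb1, which restrains entry into the cell cycle, and Trp53, which encodes the damage-activated transcription factor p53, are both deleted in cells of the bone lineage. A Col1 Cre acts in the osteoblast lineage, through a collagen promoter, and a Prx1 Cre acts earlier, in the mesenchyme of the limb bud. Within a bulk tumour, fewer cells of a type and less RNA per cell cannot be told apart as sources of a low value.

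The transcripts are named by UCSC identifiers, and no table used here pairs these with genes. The 189 are therefore described by their level, their recovered length and their behaviour across libraries. The labelled tissues could not be checked against marker genes, nor could Rb1 and Trp53 be read out.

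Lengths and read numbers were recovered from the RPKM values, which are whole numbers of reads times a step set by length and depth. A recovered length is the length by which the reads were scaled. It was not checked against the full length of the transcript. All lengths in bases below are recovered lengths. The recovered depth lay between 8105185 and 13060618 reads per library. Values listed at 0 were more common in some libraries than in others. Among transcripts with a median of 20 to 50 reads in the other libraries, 1.37% to 15.6% were listed at 0 in the osteosarcomas, against 0.600% to 15.9% in the clear cell sarcomas, 0.522% to 4.77% in the synovial sarcomas and 2.20% to 14.4% in the controls. A listed 0 was therefore not read as absence.

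As a single low class, osteosarcoma stood out for few of the 5000 transcripts. The same rule with another class in the place of osteosarcoma chose 215 of 4888 transcripts (4.40%) for clear cell sarcoma, 12 of 4630 (0.259%) for synovial sarcoma and 1404 of 6382 (22%) for control. In the opposite direction, 125 of the 5000 had an osteosarcoma median at least 2-fold over the highest of the other medians. Across all 5000 the median log2 ratio of osteosarcoma to the lowest other class was 0.45, and across the 189 it was -1.47. The rule holds every one of the 189 at -1 or below, and a class set against the lowest of 3 others tends to lie above it, so nothing is read from these values.

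The class medians of the 189 transcripts ranged widely. In osteosarcoma they ran between 0 and 5703 RPKM and centred on 3.69 RPKM. In clear cell sarcoma the median was 19.3 RPKM, in synovial sarcoma 22.3 RPKM and in control 22.2 RPKM. The highest and lowest of these other classes differed by a median factor of 1.65 per transcript. The lowest of the others was clear cell sarcoma for 83 transcripts, synovial sarcoma for 40 and control for 66, while among the 5000 it was 1474, 504 and 3022. The reductions were mostly modest: 71 transcripts had a ratio under 2.5, 61 had a ratio of 2.5 to 4 and 57 had at least 4. The median ratio was 2.77 and the quartiles were 2.31 and 4.80.

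The selection limit itself passed through a continuous range. Just inside it, a transcript with a ratio of 2.01 had a median of 65.1 RPKM in osteosarcoma and 132 RPKM in the lowest other class. Just outside, one with a ratio of 1.99 had 42 RPKM in osteosarcoma and 84.4 RPKM in the lowest other class.

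The largest ratios came with values listed at 0. In 33 of the 189 transcripts the osteosarcoma median was 0, so that the ratio gave only the level elsewhere, and it reached 466. A recovered length was available for 186, with a median of 628 bases against 1060 bases for the 5000. Recovered lengths went down to 3 bases in the 189 and to 2 bases in the 5000, so they cannot be taken as transcript sizes. Transcripts with a recovered length under 100 bases made up 12.4% of the 189 and 12.3% of the 5000. Yet 14 of the 23 transcripts under 100 bases had an osteosarcoma median of 0, compared with 19 of the 163 longer ones. The 69 transcripts with a median of at least 200 reads across the 25 other libraries had a median ratio of 2.63 and a highest ratio of 23.2. Of these 69, 2 were listed at 0 in any osteosarcoma. The limit on reads was set in the other libraries alone, so it does not show that the osteosarcoma values were well measured. The transcript with the ratio of 23.2 had a median of 15 reads in osteosarcoma.

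**Figure D1:**
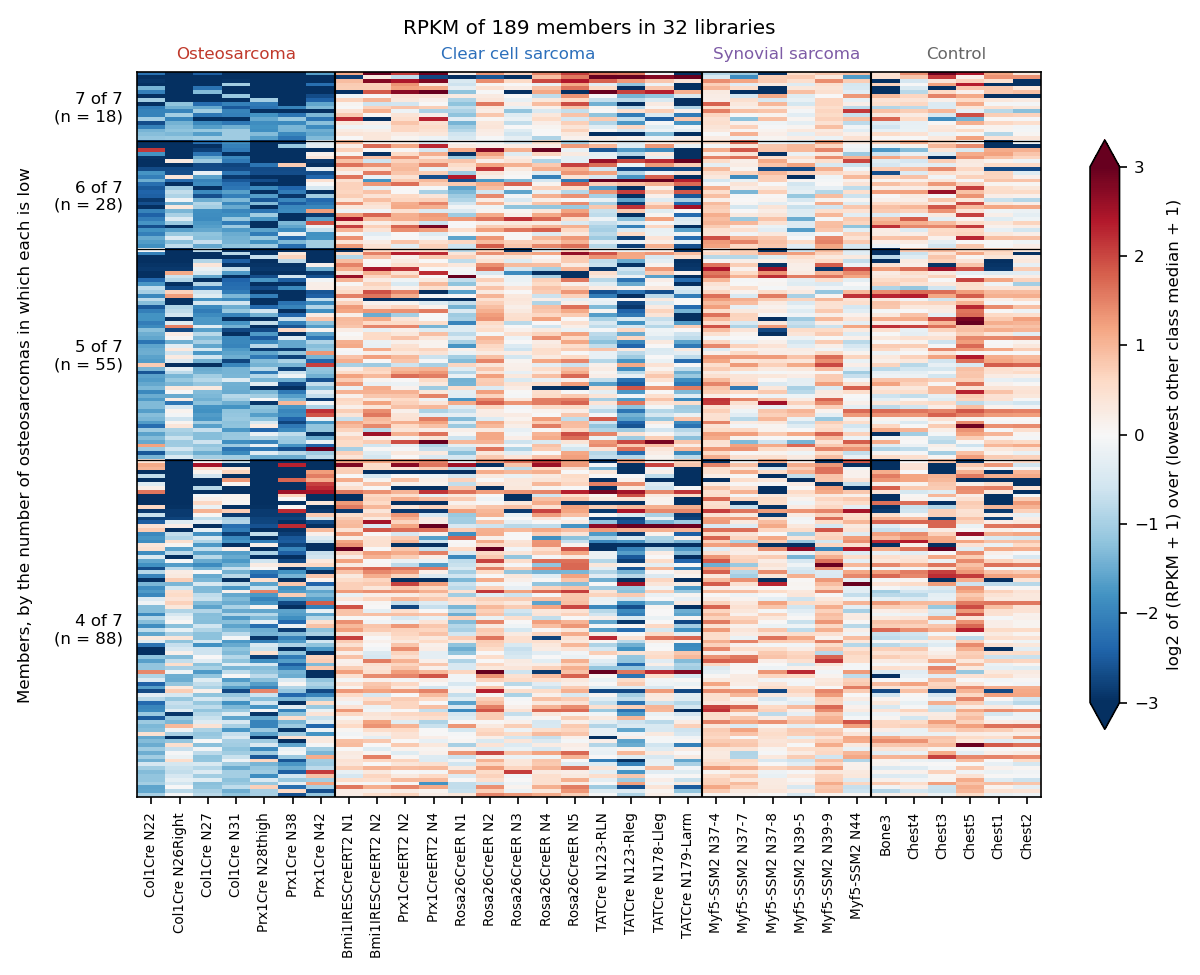
Each row is one of the 189 transcripts, sorted by the number of osteosarcomas in which it was low, and each column is one of the 32 libraries, with the osteosarcomas on the left. Colour gives log2 of (RPKM + 1) over (lowest other class median + 1), from blue (low) to red (high), and the low values fill most but not all of the 7 osteosarcoma columns and parts of the TATCre columns.

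Members were seldom low in every osteosarcoma. A library counts as low for a transcript when it lies at least 2-fold under the lowest of the other class medians. Of the 189, 88 were low in exactly 4 of the 7 osteosarcomas, the smallest number that the median allows, 55 in 5, 28 in 6 and 18 in all 7. Of the 163 transcripts of 100 bases or more, 15 were low in all 7. In the opposite view, 39 of the 189 were low in none of the 25 other libraries, and the median transcript was low in 2 of them. No matching count is given for all transcripts that met the criteria on the other classes. These counts are therefore a description only and cannot be read as high or low.

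The osteosarcomas contributed unequally. Low values were found for 154 transcripts (81.5%) in Col1Cre N22, for 150 (79.4%) each in Col1Cre N31, Prx1Cre N28thigh and Prx1Cre N38, for 116 (61.4%) in Col1Cre N27, for 109 (57.7%) in Prx1Cre N42 and for 92 (48.7%) in Col1Cre N26Right. Both Cre groups therefore held libraries with many and with few low values. Equal shares did not stand on equal backgrounds. Across the 5000 transcripts that met the level criteria, 19.3% were low in Prx1Cre N38 but 5.26% in Col1Cre N31, with a range of 2.98% to 19.3% in the osteosarcomas. Of the 189, 12 were low in all but Prx1Cre N42, 10 in all but Col1Cre N26Right and 11 in all but these 2. In the clear cell sarcomas the share of the 189 that was low ran between 2.12% and 49.7%. It ran between 1.59% and 10.1% in the synovial sarcomas and between 1.59% and 10.6% in the controls. The matching shares of the 5000 were 0.46% to 18.2% in the clear cell sarcomas, 0.36% to 1.5% in the synovial sarcomas and 0.46% to 5.52% in the controls. Among the 189, the low end of the osteosarcomas thus met the high end of the clear cell sarcomas. The osteosarcomas had helped to choose the 189, which raises their shares. When each was left out of the choice, the share was 36.6% in Col1Cre N26Right, 44.1% in Prx1Cre N42 and 47.5% in Col1Cre N27. These lay under the 49.7% of TATCre N123-Rleg, and the remaining osteosarcomas, at 66.1% to 71.4%, lay above it. The left-out shares are of slightly different choices of transcripts.

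**Figure D2:**
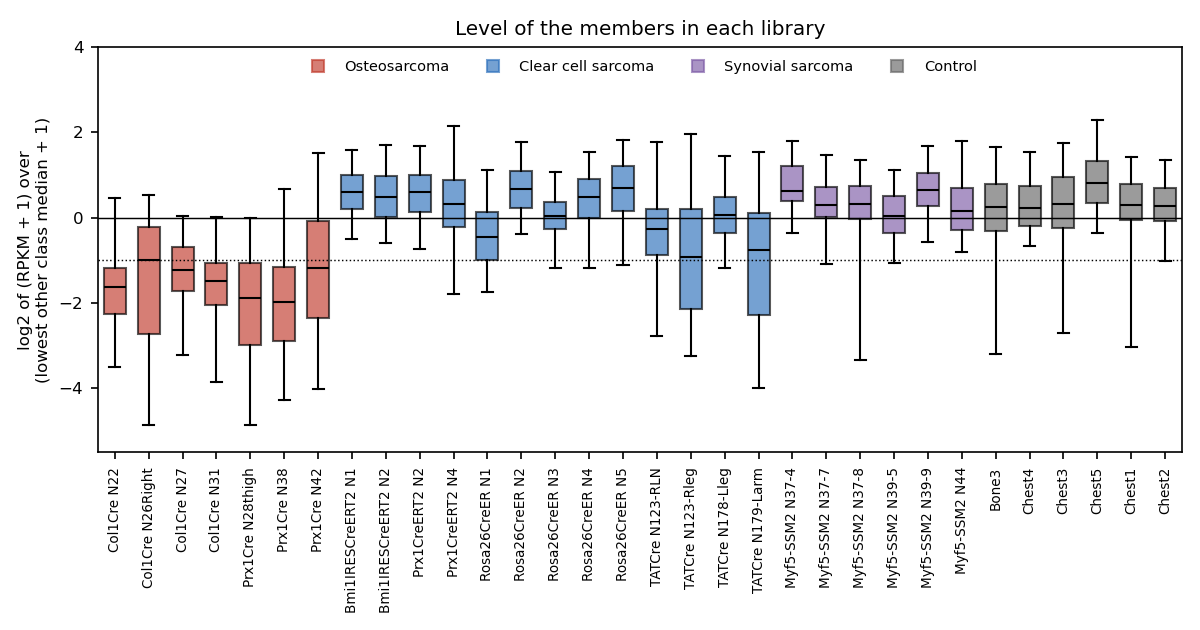
Boxes show the spread of log2 of (RPKM + 1) over (lowest other class median + 1) across the 189 transcripts in each library, with the median as a line, the box spanning the quartiles and whiskers from the 5th to the 95th percentile. Osteosarcoma medians lie between -1.99 and -0.99, and the TATCre libraries N123-Rleg and N179-Larm sit closest to them.

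A pair of osteosarcomas listed nearly the same transcripts at 0. Prx1Cre N28thigh had 46 of the 189 at 0 and Col1Cre N26Right had 45, and 45 were at 0 in both. Each of the other 20 pairs of osteosarcomas shared between 2 and 28. The rank correlation across the 189 was 0.85 for this pair, and 0.36 to 0.68 for the other 20 pairs. Across the 5000 it was 0.87 for this pair, inside the 0.68 to 0.93 of the other 20. Of the 45 at 0 in both, 42 were shorter than 250 bases, and their median length was 121 bases against 1024 bases for the other 144 transcripts. They were also at 0 in 27 cases in Prx1Cre N38, in 24 cases in the clear cell sarcoma TATCre N179-Larm and in 15 cases in the synovial sarcoma Myf5-SSM2/PLUC N37-8. Among all 5000, 69 transcripts were at 0 in Prx1Cre N28thigh and 68 in Col1Cre N26Right, of which 67 were shared. When both libraries were left out of the osteosarcoma median, the rule still chose 133 of the other 144 transcripts and 25 of the 45. The 45 had been picked for their 0 in these same libraries. A larger loss among them was therefore built in, and nothing is read from it. The part of transcript length in these shared values at 0 was not tested.

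**Figure D3:**
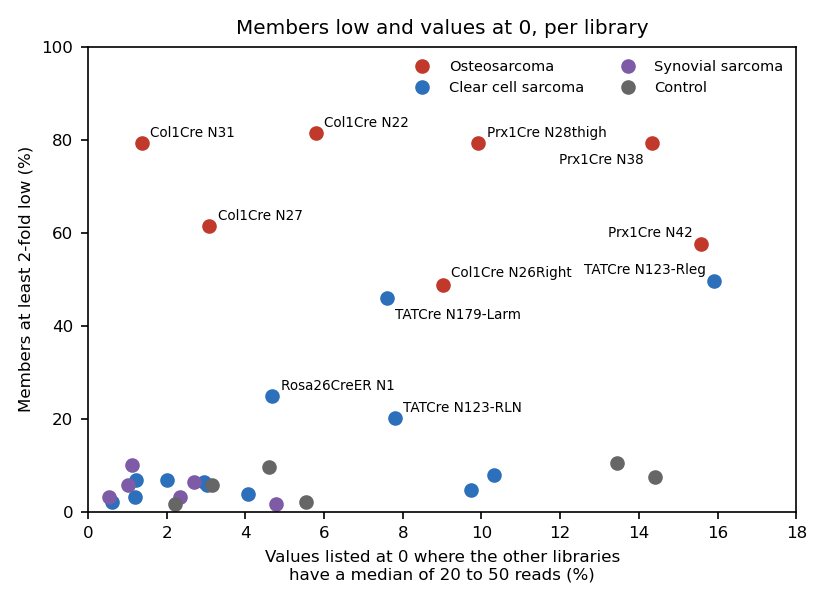
Each point is a library, with the share of moderately expressed transcripts that it lists at 0 on the horizontal axis (percent, transcripts with a median of 20 to 50 reads in the other libraries) and the share of the 189 that were low in it on the vertical axis (percent). The osteosarcomas run from 1.37% at 0 with 79.4% low (Col1Cre N31) to 15.6% at 0 with 57.7% low (Prx1Cre N42), TATCre N123-Rleg has 15.9% at 0 with 49.7% low, and the controls have 2.20% to 14.4% at 0 with at most 10.6% low.

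To set the pattern against a library that had no part in choosing it, the rule was applied with 6 osteosarcomas and the seventh was then read. The choice from 6 gave 167 to 205 transcripts, of which 155 to 172 were among the 189. In the left-out library 36.6% to 71.4% of the chosen transcripts were low. The share was 71.4% in Col1Cre N22 against 6.7% of all 5000 transcripts, 66.1% in Col1Cre N31 against 5.26%, 47.5% in Col1Cre N27 against 3.46% and 36.6% in Col1Cre N26Right against 2.98%. In the Prx1Cre libraries it was 70.1% in N28thigh against 11.4%, 68.2% in N38 against 19.3% and 44.1% in N42 against 8.6%. Each left-out osteosarcoma was thus low for far more of the chosen transcripts than of the 5000. In 3 of the 7, Col1Cre N26Right, Col1Cre N27 and Prx1Cre N42, fewer than 50% of the choice was low. The count depends on the fold that counts as low: at 1.5-fold the shares were 54.8% to 83.3%, against 5.7% to 26.6% of the 5000, and at 3-fold they were 21.5% to 55.9%, against 1.32% to 10.9%. The other class medians against which the left-out library was read were those used in the choice.

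**Figure D4:**
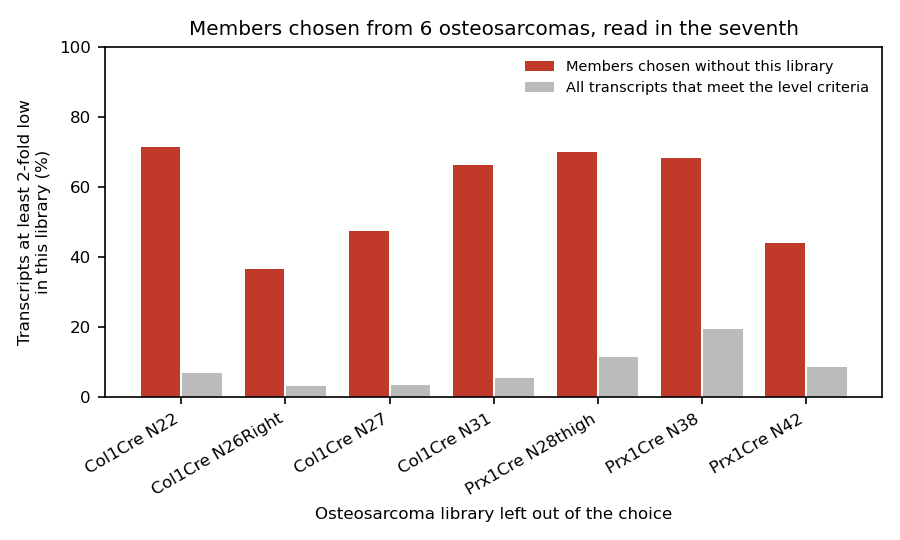
For each osteosarcoma in turn, the share of transcripts at least 2-fold under the lowest other class median (percent) is shown for the transcripts chosen from the remaining 6 osteosarcomas and for all 5000 that met the level criteria. The chosen transcripts reach 36.6% to 71.4%, and the 5000 reach 2.98% to 19.3%.

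The transcript uc007zjv.1, of 598 bases, had the largest ratio of the 163 members of 100 bases or more. Its level in osteosarcoma was 7.40 RPKM in Prx1Cre N28thigh, 0 in Prx1Cre N38, 0.47 RPKM in Prx1Cre N42, 4.97 RPKM in Col1Cre N22, 4.66 RPKM in Col1Cre N26Right, 2.18 RPKM in Col1Cre N27 and 1.98 RPKM in Col1Cre N31. These values rest on 0 to 53 reads. In the clear cell sarcomas the lowest level was 4.94 RPKM, the median 87.8 RPKM and the highest 2397 RPKM. In the synovial sarcomas it was 19.2 RPKM at the lowest, 72.9 RPKM at the median and 127 RPKM at the highest, and in the controls 82.7, 159 and 320 RPKM. All 7 osteosarcomas lay under every synovial sarcoma and every control, and they overlapped with the clear cell sarcoma Rosa26CreER N1 alone. By the 2-fold count, however, uc007zjv.1 was also low in 7 of the 25 other libraries. These were the clear cell sarcomas Rosa26CreER N1, N2 and N3, Prx1CreERT2 N4 and Bmi1IRESCreERT2 N1, and the synovial sarcomas N37-7 and N44. The ratio of the lowest other median to the osteosarcoma median was 23.2.

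Within clear cell sarcoma uc007zjv.1 differed between the initiating Cre groups. The 4 TATCre libraries had 499 to 2397 RPKM, while the 5 Rosa26CreER libraries had 4.94 to 221 RPKM, the 2 Prx1CreERT2 libraries 10.2 and 43.2 RPKM and the 2 Bmi1IRESCreERT2 libraries 9.20 and 87.8 RPKM. Every TATCre library was above all the others. limma's F test over the 4 Cre groups gave an adjusted p of 0.0364 (Benjamini-Hochberg over 15195 transcripts), and TATCre exceeded Rosa26CreER by 5.27 on the log2(RPKM + 1) scale. The call was lost in 9 of 21 alternatives, with adjusted p between 0.0192 and 0.0934 over the 21. The losses came with the 2 libraries numbered N123 averaged and with any 1 of 8 libraries left out, Rosa26CreER N2 and N3, TATCre N179-Larm, N123-Rleg and N123-RLN, both Prx1CreERT2 libraries and Bmi1IRESCreERT2 N1.

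The next by ratio, uc009heq.1, has 121 bases and a ratio of 18.6, which reflects an osteosarcoma median of 0. It was listed at 0 in 4 osteosarcomas, Prx1Cre N28thigh, Prx1Cre N38, Col1Cre N22 and Col1Cre N26Right, and had 2.87 RPKM in Col1Cre N27, 4.08 RPKM in Col1Cre N31 and 13.1 RPKM in Prx1Cre N42. The last value rests on 17 reads. Levels ran between 8.16 and 36.2 RPKM in the clear cell sarcomas with a median of 17.6, between 13.3 and 61.5 RPKM in the synovial sarcomas with a median of 24.7, and between 0 and 38.4 RPKM in the controls with a median of 22.9. The osteosarcoma Prx1Cre N42 lay inside the range of the other classes and the control Chest1 was listed at 0, so the groups overlapped. The transcript uc009heq.1 was 1 of those at 0 in both Prx1Cre N28thigh and Col1Cre N26Right.

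Complete separation was rare. For 8 of the 189, all 7 osteosarcomas lay under all 25 other libraries, and 9 of the 5000 did so (0.18%). These 8 had lengths of 1095 to 6534 bases, ratios of 2.05 to 4.02 and osteosarcoma medians of 2.29 to 12.3 RPKM, and none was at 0 in an osteosarcoma. They therefore lay among the longer and better covered members and not among those with the largest ratios. The one with the largest ratio, 1303 bases long and chosen after its values were seen, had 6.72 RPKM in Prx1Cre N28thigh, 7.95 RPKM in Prx1Cre N38, 13.5 RPKM in Prx1Cre N42, 7.40 RPKM in Col1Cre N22, 12.2 RPKM in Col1Cre N26Right, 11.4 RPKM in Col1Cre N27 and 5.30 RPKM in Col1Cre N31. It had 17.9 to 63.9 RPKM in the clear cell sarcomas, 20.01 to 51.1 RPKM in the synovial sarcomas and 18.5 to 49.8 RPKM in the controls. The highest osteosarcoma thus stood below the lowest of the other libraries, and the osteosarcoma values rest on 70 to 189 reads.

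**Figure D5:**
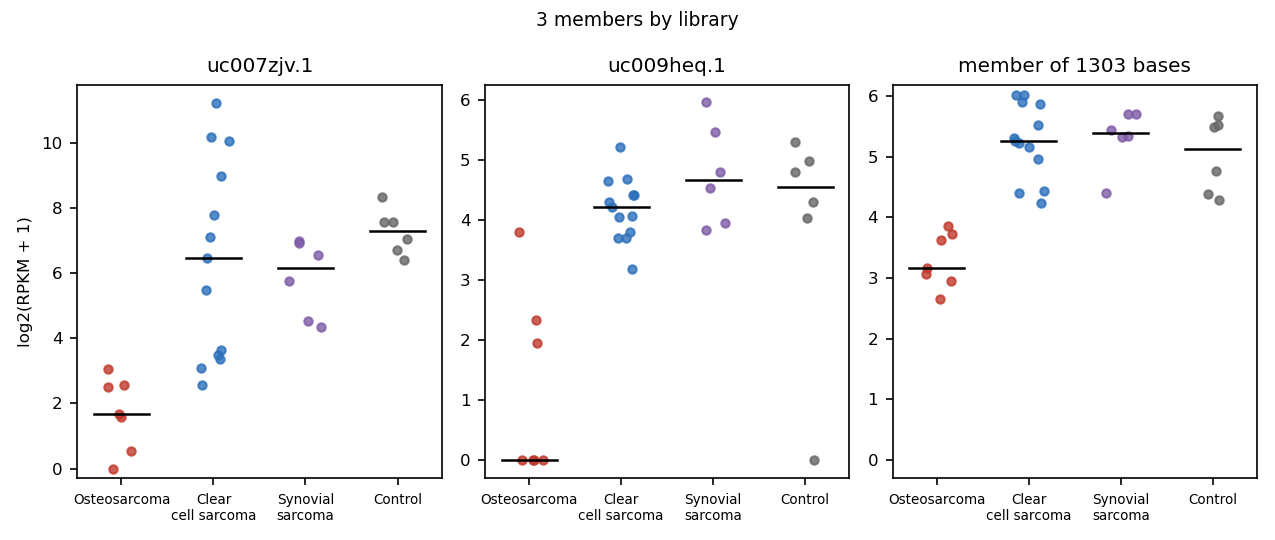
Levels of uc007zjv.1, uc009heq.1 and the 1303-base transcript in all 32 libraries, as log2(RPKM + 1), with each point a library and the line the class median. The 1303-base transcript keeps the 7 osteosarcomas at 5.30 to 13.5 RPKM, under every other library, and the other 2 transcripts show overlap.

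Whether the Cre of the osteosarcoma mattered for these transcripts was examined within the 7 osteosarcomas, a contrast that the choice of the 189 did not use. No transcript passed. limma, with Benjamini-Hochberg adjustment over the 12623 transcripts tested, called 0 between Col1Cre and Prx1Cre (0%), with 570 at an unadjusted p under 0.05 (4.52%). On simulated data of this design the fit called 12 of 100 well expressed transcripts changed by 2 on the log2 scale. It called 59 of 100 changed by 4, so 0 calls do not show that the Cre made no difference. Only well expressed transcripts were changed in the simulation. These rates need not hold for the 189, whose osteosarcoma medians centred on 3.69 RPKM. A level of at least 1 RPKM in at least 3 osteosarcomas was needed, and 176 of the 189 met it. Of these, 0 were called and 16 had an unadjusted p under 0.05, and the smallest adjusted p was 0.977. The median log2 fold change of Col1Cre over Prx1Cre was 0.09 for the 176 and 0.23 for all tested, and 57.4% of the 176 were higher in Col1Cre against 64.4% of all tested. For uc007zjv.1 the log2 fold change was 0.87 with a standard error of 0.77 (limma adjusted p = 0.979), and for uc009heq.1 it was -0.20 with a standard error of 1.08 (limma adjusted p = 0.992). The 0 became 16 transcripts without Prx1Cre N28thigh, 10 without Col1Cre N22 and 2 without Col1Cre N26Right, and both of the last were among the 189.

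Many of the 189 were also low in some of the TATCre clear cell sarcomas. Among the 13 clear cell sarcomas, 94 of the 189 (49.7%) were low in TATCre N123-Rleg, where 18.2% of the 5000 were low too. In TATCre N179-Larm 87 (46.0%) were low against 7.94% of the 5000, in TATCre N123-RLN 38 (20.1%) against 7.44%, and in TATCre N178-Lleg 6.88% against 0.92%. Outside the TATCre libraries the highest share was 24.9%, in Rosa26CreER N1, against 3.22% of the 5000. The 2 libraries numbered N123, which have the same number in their titles, did not behave alike. Of the 189, 70 were low in both N123-Rleg and N179-Larm, and 78 were low in neither. No matching count is given for the 5000 or for the 2 N123 libraries, so the 70 is a description only. The choice of the 189 used the median of the 13 clear cell sarcomas, which allows a transcript to be low in the 4 TATCre libraries but not in most of the 13, so these shares are partly bounded by the choice.

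By group means, 128 of the 189 (67.7%) had their lowest level in TATCre, against 1831 of the 5000 that met the same level criteria (36.6%) and 5952 of all 15195 transcripts tested (39.2%). The median log2 difference of TATCre from Rosa26CreER was -0.88 for the 189, -0.13 for the 5000 and -0.28 for all tested. That of Prx1CreERT2 from Rosa26CreER was 0.20 for the 189, -0.09 for the 5000 and -0.12 for all tested. For Bmi1IRESCreERT2 it was 0.28 for the 189, -0.23 for the 5000 and -0.15 for all tested. These values were not tested for the 189 as a group.

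limma's F test over the 4 Cre groups called 1633 of 15195 transcripts (10.7%). All 189 were tested and 22 were called (11.6%), a share near that of all transcripts, against 417 of the 5000 (8.34%). Of these 22, 15 had their lowest mean in TATCre (68.2%), compared with 452 of the 1633 (27.7%). The 68.2% was near the 67.7% of all 189, so the called members did not stand apart in this from the 189. Without TATCre N178-Lleg, 56 of the 189 (29.6%) were called against 16.5% of all transcripts. Without TATCre N179-Larm 10 of the 189 (5.29%) were called against 5.04% of all transcripts, and without TATCre N123-RLN 11 (5.82%) against 5.5%, both near the share of all transcripts. The smallest adjusted p of a member was 5.19e-06, for a transcript of 69 bases, chosen after its values were seen. It was listed at 0 in all 4 TATCre and both Prx1CreERT2 libraries, and had 15.4 to 39.2 RPKM in the 5 Rosa26CreER and 21.1 and 39.1 RPKM in the 2 Bmi1IRESCreERT2 libraries. In 2 osteosarcomas, 2 synovial sarcomas and 2 controls it was listed at 0 as well. This transcript had a median of 9 reads across the libraries outside osteosarcoma, and no member had a lower one. Because a listed 0 was not read as absence, its small adjusted p is not read as a loss in the TATCre and Prx1CreERT2 libraries.

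Overlapping transcripts of 1 locus can share or split reads. In the order of the deposited list 7 of the 189 came directly after another, so these may not be independent.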

How the data were processed

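Extraction used a Qiagen kit with DNase and library preparation a TruSeq kit (the labels' protocols). The submitters' processing notes name CASAVA 1.8.2, Novoalign 2.07.03 and the build mm9, and no source used here names the counting program. Deposited by the authors were RPKM values of 55419 transcripts in 32 libraries, matched to the labels by title. A further 29 columns, of human tumours, were not analysed here. Depth and transcript length were recovered from the RPKM steps, and 99.95% of the steps found gave whole lengths within 0.02 bases. The reads behind a value set its precision, and no interval was computed.

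Class medians and shares were computed in Python 3.11.15. Col1Cre against Prx1Cre, and an F test over the 4 Cre groups of clear cell sarcoma, were fitted with limma 3.58.1 (R 4.3.3, trend, two-sided) on log2(RPKM + 1), with Benjamini-Hochberg adjustment at 0.05. The fits kept transcripts of at least 1 RPKM in at least 3 osteosarcomas or at least 2 clear cell sarcomas. A pseudocount of 1 makes changes at low RPKM look smaller. The scripts were tested on simulated data. Transcripts were named by their ratio, the first 2 of at least 100 bases. The members, lists and tests were chosen with earlier results of these data known. Gene lists, cell type markers, Rb1 and Trp53 could not be looked up, because no table used here pairs the identifiers with genes. Other pseudocounts, filters, scalings, limits and left-out libraries were tried.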

Additional observations from a re-analysis of the deposited data

Results flagged for a closer look

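In 42 combinations of a group and a measure, 1 sample stood far from the others of its group 5 times, by the gap to its nearest neighbour over the group's range, and chance alone flags about 1 in 20. Among the osteosarcomas, Prx1Cre N42 had 13.1 RPKM of uc009heq.1, and the next highest had 4.08 RPKM. Among the Rosa26CreER clear cell sarcomas, 24.9% of the 189 transcripts were low in Rosa26CreER N1, and 6.88% were low in the next. Among the synovial sarcomas, Myf5-SSM2/PLUC N37-8 listed 10.1% of the 189 at 0, and the next listed 1.59%. Chest5 had the highest median log2 ratio of the 189 to the lowest other class median, 0.80, both among all 6 controls and among the 5 Chest controls, and the next had 0.32.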

How the results depend on the processing

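The number of transcripts chosen became 213% of the 189 (402) at 1.5-fold, 45.5% (86) at 3-fold, 162% (307) with a lowest other median of at least 1 RPKM, 65.1% with at least 10 RPKM and 155% (293) with no limit on the spread of the other classes. Leaving out 1 osteosarcoma or the Bone control gave 88.4% to 108%. Under the other planned settings 152 to 214 were chosen, but fewer were the same: 138 of the 189 with median ratio scaling, 127 with quantile normalization and 117 with means of log2 values. Over all transcripts that met the criteria, the median log2 ratio of osteosarcoma to the lowest other class was 0.45 as deposited, 0.40 with median ratio scaling and 0.35 with quantile normalization. Settings added after the data were seen kept 83.6% of the 189 with values of 0 left out (271 chosen), 83.6% without Prx1Cre N28thigh and Col1Cre N26Right (198 chosen), 79.4% without these and Prx1Cre N38 (181 chosen) and 94.7% without the TATCre libraries (253 chosen). The cause of these shifts was not tested.

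Col1Cre against Prx1Cre called 0 transcripts under every other pseudocount, filter, scaling and trend tried, 0 to 16 with 1 osteosarcoma left out, and 0 to 2 of the 189. The log2 fold change of uc009heq.1 was 0.22 with a pseudocount of 0.1, and -0.83 to 0.16 in the 4 of 7 fits with 1 osteosarcoma left out that kept it, above 0 without Col1Cre N22 or N26Right, and was called in none of these. The F test called 759 to 2470 transcripts and 10 to 56 of the 189 with 1 clear cell sarcoma left out; where that left a Cre group with 1 library, the lone library was assumed to vary like the others. Transcript counts fell by more than 1.5 times without Rosa26CreER N3 (849), TATCre N123-RLN (830), TATCre N179-Larm (759), Prx1CreERT2 N2 (886), Prx1CreERT2 N4 (901) or Bmi1IRESCreERT2 N1 (1030). A replicate block on the title numbers gave 2296 transcripts and 35 of the 189, with a correlation of -0.15 within numbers. This block also joined libraries of different Cre groups that carry the same number, such as Rosa26CreER N1 and Bmi1IRESCreERT2 N1. The correlation therefore cannot show whether libraries that share a number are pairs. Depth limits the members with fewest reads: 62 had a median under 50 reads in the other libraries.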
